A study of Penicillium oxalicum with 18 samples.

Results

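The response of Penicillium oxalicum to its carbon source was examined in a strain deleted for hap5, in the 6 libraries of that strain out of 18 in the series. The 3 libraries from bran with cellulose were set against the 3 from glucose, with members taken by strain, medium and replicate number in the column names. P. oxalicum is a filamentous fungus that secretes enzymes able to break down plant cell walls. Mycelium was precultured on 2% glucose for 24 h at 30 °C, then moved for 24 h to modified Mendal's medium holding either 1% bran plus 1% microcrystalline cellulose or 2% glucose. The 2 other strains, each with 3 libraries on either medium, were a hap3 deletion strain and wild type 114-2, and every group passed through the same glucose preculture. Neither the number of transformants behind the deletion strain nor whether replicates came from separate cultures is stated in the labels, so p-values reflect only how these libraries vary, and that variation may be technical.

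Hap3 and Hap5 are subunits of the Hap complex, which binds CCAAT sequences in promoters. In yeast and in other filamentous fungi the DNA-binding core is formed by Hap2, Hap3 and Hap5 together, and loss of any of these subunits abolishes binding. In Saccharomyces cerevisiae the complex is known for activating respiratory genes on non-fermentable carbon, and in Trichoderma reesei it binds the promoter of a cellulase gene. Glucose represses many genes for plant polysaccharide breakdown in filamentous fungi, whereas bran and cellulose can be used only after secreted enzymes release sugars from them.

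Levels of 9277 genes are in FPKM, a fragment number divided by gene length and by the mapped total of the library. The table gives identifiers but no gene names or functions, and a reference list of 9964 genes matched 0 of them, so genes are described by tag, level and response. Totals of the 6 hap5 deletion libraries ran from 989096 to 1045258 FPKM, with 598 to 734 genes listed at 0, and sequencing depth is unknown. Libraries of 1 medium correlated across genes at 0.981 to 0.983 on bran and cellulose and at 0.972 to 0.982 on glucose. Between the media the correlations were 0.795 to 0.818, so the media separated the 6 libraries more than any pair of replicates. PDE_01016, chosen after its values were seen, ranged over 1.43 to 2.22 FPKM in the strain lacking hap5 and over 119 to 226 FPKM in the 12 other libraries. Whether this tag is hap5 could not be checked, since it carries no name.

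Without hap5 the fungus still reprogrammed a large part of its transcripts between the media. Changes are differences of mean log2(FPKM + 1), bran and cellulose minus glucose, which understate the change of low genes. A gene was called at a Benjamini-Hochberg adjusted p under 0.05 by limma with a log2 change of at least 1. Of 8681 genes tested, 1198 were higher on bran and cellulose (13.8%) and 961 were lower (11.1%), together 24.9%. A log2 change of at least 3 was reached by 296 of the higher genes (3.41% of those tested) and by 148 of the lower ones (1.7%). The responses were asymmetric in size: of the genes with the largest changes, at a log2 value of 5 or more, 74 were higher (0.852%) and 45 lower (0.518%). At a log2 value of 2 or more the counts were 542 (6.24%) and 338 (3.89%). Without regard to size, 2837 genes (32.7%) had all bran and cellulose libraries above all glucose libraries and 3521 (40.6%) had them all below. Without a minimum change 2443 genes were higher (28.1%) and 3009 lower (34.7%) at an adjusted p under 0.05, and the median change of all genes was -0.07. The size of this lean towards lower values depended on scaling. Median-of-ratios scaling, which itself centres the typical change near 0, gave a median of 0.0035, and quantile normalization gave -0.11. Calls of at least 1 log2 unit were 1281 higher and 853 lower with median-of-ratios scaling and 1132 higher and 1087 lower with quantile normalization.

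Calls were spread over the whole range of expression. Among 1829 genes averaging at least 100 FPKM over the 6 libraries, 16.5% were higher on bran and cellulose and 15.3% were lower. Among 5026 genes between 10 and 100 FPKM the shares were 11.8% and 9.37%. The 1826 genes under 10 FPKM gave 16.6% and 11.6%. As a share of the genes tested, large changes were commonest among abundant genes, where 121 rose (6.62%) and 54 fell (2.95%) by a log2 value of at least 3. Between 10 and 100 FPKM 141 rose (2.81%) and 71 fell (1.41%). Under 10 FPKM, where the added constant shrinks changes, 34 rose (1.86%) and 23 fell (1.26%). The classes rest on the mean of the same 6 libraries, so a high level on 1 medium can itself lift a gene into a higher class. The table also holds 36 genes with XLOC identifiers in place of PDE tags. Of the 35 that were tested, 5 were higher and 5 lower, 14.3% in either direction, near the 13.8% and 11.1% of all tested genes. The filter kept out 596 genes that reached 1 FPKM in fewer than 3 of the 18 libraries, and 123 of these were listed at 0 in all 6 hap5 deletion libraries.

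The largest increases among genes detected in all 6 hap5 deletion libraries set transcripts of over 1000 FPKM against a few FPKM. PDE_09419 stood at 2188, 1860.3 and 1767 FPKM on bran and cellulose, against 1.4, 0.6 and 0.76 FPKM on glucose. The log2 change was 9.996 (SE 0.25, limma adjusted p = 3.98e-14). PDE_09226 stood at 1604, 1399 and 2291 FPKM on bran and cellulose and at 5.57, 3.92 and 5.45 FPKM on glucose. Its log2 change was 8.19 (SE 0.18, limma adjusted p = 9.74e-15). These 2 genes differed in how far the same response was present in wild type. PDE_09226 changed there by 8.39, and the difference between the strains was -0.21 with a 95% interval from -0.74 to 0.32. PDE_09419 changed in wild type by 3.74, and its response was larger in the hap5 deletion by 6.26 (SE 0.35, limma adjusted p = 8.02e-10). In the hap3 deletion it changed by 9.81, much as without hap5.

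The largest decreases were as steep. PDE_00326 stood at 1.94, 2.73 and 1.99 FPKM on bran and cellulose, against 1887, 1633 and 2487 FPKM on glucose. The log2 change was -9.27 (SE 0.28, limma adjusted p = 3.41e-13). PDE_00023 stood at 0.39, 0.57 and 0.39 FPKM on bran and cellulose and at 752, 525 and 632 FPKM on glucose, a log2 change of -8.77 (SE 0.22, limma adjusted p = 4.17e-14). Both genes also fell in wild type, by 3.62 and 5.91 on the log2 scale, and both fell further in the hap5 deletion. On glucose they were more abundant in the hap5 deletion than in wild type, where PDE_00326 stood at 73.7, 52.7 and 109.9 FPKM and PDE_00023 at 241, 246 and 158 FPKM.

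**Figure D1:**
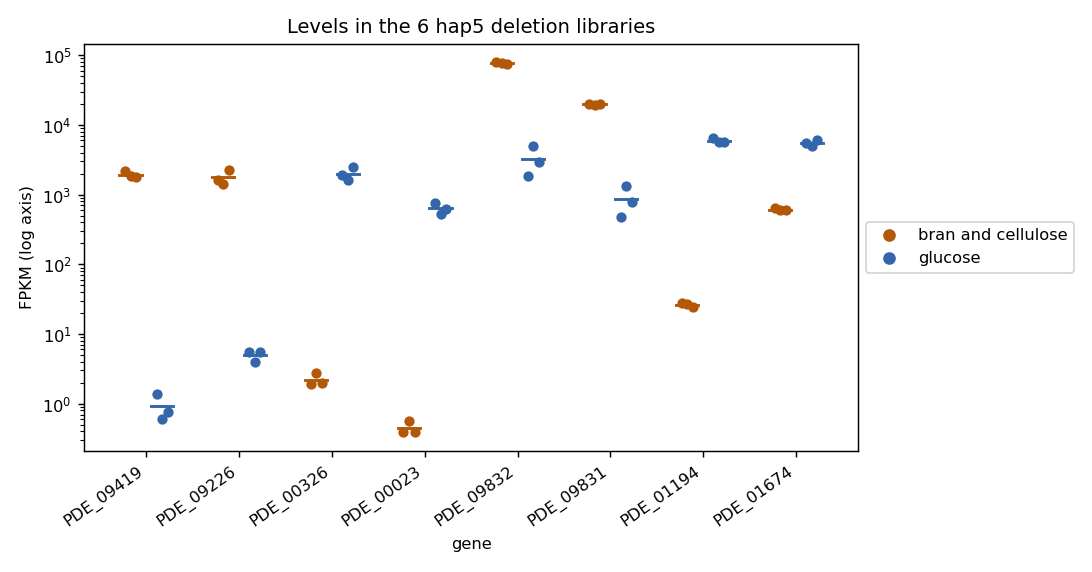
Levels of 8 genes in the 6 hap5 deletion libraries, in FPKM on a log axis, with a point for each library and a bar for the mean of 3. The first 4 genes have the largest log2 changes, and the last 4 the largest gain or loss in share of the FPKM total. Media that do not overlap were a condition for naming these genes. On the log axis the 3 glucose libraries of PDE_09832 and PDE_09831 spread more than the 3 bran and cellulose libraries.

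A pair of consecutive tags dominated the transcripts on bran and cellulose. Shares of the FPKM total are shares per unit of gene length, not shares of reads. PDE_09832 stood at 78707, 78261 and 75495 FPKM on bran and cellulose, against 1852, 5009.9 and 2978 FPKM on glucose. It held 7.68% ± 0.0621 of the total on bran and cellulose and 0.318% ± 0.152 on glucose (SD, n = 3 each). PDE_09831 held 1.95% ± 0.0472 on bran and cellulose and 0.0833% ± 0.0413 on glucose. The log2 changes were 4.68 (SE 0.32, limma adjusted p = 5.35e-09) for PDE_09832 and 4.64 (SE 0.31, limma adjusted p = 5.33e-09) for PDE_09831. In the glucose libraries both tags were lowest in replicate 1 and highest in replicate 2. Wild type changed by 5.01 and 4.99 at the same genes. The difference between the hap5 deletion and wild type was -0.33 for PDE_09832, with a 95% interval from -1.29 to 0.63, which spans both directions. The level of PDE_09832 was lower in wild type on both media, with means of 24757 FPKM on bran and cellulose and 761 FPKM on glucose. In the hap3 deletion these means were 81939 and 1489 FPKM, and the pair changed by 5.83 and 5.58.

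The largest losses of share were of transcripts that were abundant on glucose. PDE_01194 stood at 27.9, 26.8 and 24.7 FPKM on bran and cellulose, against 6434, 5613 and 5619 FPKM on glucose, and its log2 change was -7.74 (SE 0.11, limma adjusted p = 8.33e-17). PDE_01674 stood at 633, 599.96 and 596 FPKM on bran and cellulose and at 5482, 4925 and 6004 FPKM on glucose, a log2 change of -3.16 (SE 0.09, limma adjusted p = 3.42e-13). PDE_01674 fell further than in wild type, where its change was -1.77, with a difference of -1.39 (SE 0.13, limma adjusted p = 3.75e-07). In the hap3 deletion PDE_01674 changed by -3.69. Both genes stayed detectable on bran and cellulose in every library.

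The top of the pool was more concentrated on bran and cellulose, and this rested on PDE_09832 and PDE_09831. The 10 most abundant genes held 14.8% to 14.96% of the FPKM total on bran and cellulose and 6.92% to 7.40% on glucose. With that pair left out, the 10 most abundant remaining genes held 6.52% to 6.76% of the rest on bran and cellulose and 6.94% to 7.43% on glucose. Over the 100 most abundant genes the shares were 32.5% to 33.0% and 28.6% to 30.1%. The number of genes needed to reach 50% of the total overlapped between the media, at 294 to 304 on bran and cellulose and 285 to 311 on glucose. Of the 100 most abundant genes on either medium, 61 were shared. Among the 100 on bran and cellulose, 31 had been called higher and 4 lower, and among the 100 on glucose, 30 had been called lower and 1 higher, beside 13.8% higher and 11.1% lower of all tested genes. Ranking by level on a medium favours calls towards that medium. The 1198 higher genes together held 31.5% ± 0.0521 of the total on bran and cellulose and 4.26% ± 0.420 on glucose (SD, n = 3 each), or 21.9% and 3.86% without the pair. The 961 lower genes held 6.78% ± 0.104 and 24.8% ± 0.699 on the same media. These sums describe genes chosen by the same contrast and carry no test.

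**Figure D2:**
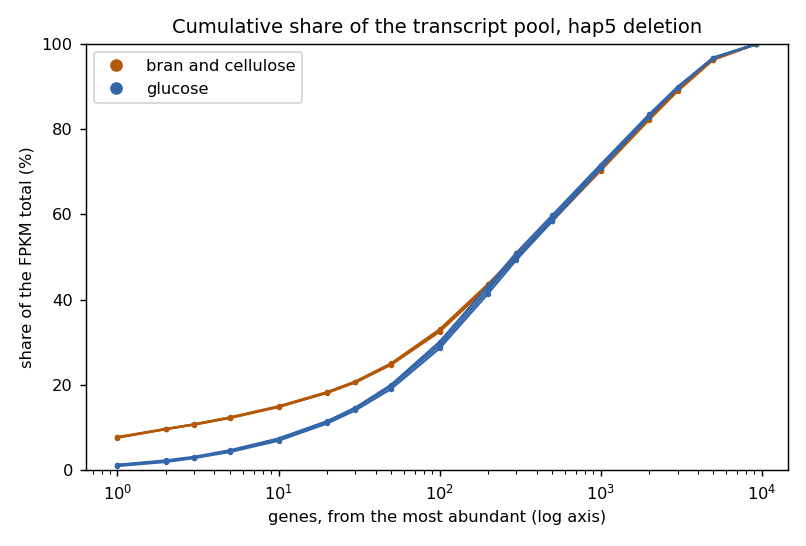
Cumulative share of the FPKM total, in percent, against the number of genes counted from the most abundant, on a log axis, with a line for each of the 6 hap5 deletion libraries. The bran and cellulose lines start at 7.63% to 7.75% with 1 gene and the glucose lines at 0.971% to 1.23%, and at 300 genes the lines of the media overlap.

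A small part of the genes was listed at 0 on 1 medium and detected on the other. Of 9277 genes, 70 were at 0 in all 3 glucose libraries and at 1 FPKM or more in all 3 bran and cellulose libraries. At a minimum of 10 FPKM there were 32. In the other direction 52 genes had at least 1 FPKM on glucose and were listed at 0 on bran and cellulose, 29 of them with at least 10 FPKM. Wild type showed the same pattern, at the same minimum of 1 FPKM, at 22 of the 70 and 15 of the 52 genes. The hap3 deletion showed it at 41 of the 70 and 35 of the 52. Of the 70 genes, 20 were listed at 0 in all 6 wild type libraries, as were 6 of the 52. Single wild type libraries listed 804 to 959 genes at 0, against 598 to 734 in the hap5 deletion. A listed 0 may be a failed estimate, since 76 genes had a listed 0 although a sister hap5 deletion library on that medium reached 10 FPKM.

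Genes chosen by the response of the hap5 deletion were then described in wild type, whose 6 libraries entered the filter and the shared estimate of spread behind the calls but not the change itself. The 1198 genes with higher levels on bran and cellulose had a median log2 change of 1.87 without hap5 and 1.65 in wild type, and 86.9% of them had the same sign in wild type. The median change of all tested genes was -0.07 in the hap5 deletion and 0.16 in wild type. For the 961 lower genes the medians were -1.60 in the hap5 deletion and -0.97 in wild type, and 76.4% had the same sign. Called higher in wild type were 791 of the 1198 genes, which is 66.0% of the hap5 deletion list and 39.2% of the wild type list, where 23.2% of tested genes were higher. Called lower in wild type were 474 of the 961 genes, 49.3% of the hap5 deletion list and 39.2% of the wild type list, where 13.9% of tested genes were lower and 37.2% called either way. Among the strongest responders, with a log2 change of at least 3 in the hap5 deletion, the medians were 4.01 and 2.89 for 296 higher genes in the hap5 deletion and wild type. For 148 lower genes they were -3.96 and -2.46. The hap5 deletion medians are those of chosen genes and are given as a description.

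The difference in response was tested gene by gene as an interaction in the fit over all 18 libraries. The response was more positive in the hap5 deletion than in wild type at 948 of 8681 genes (10.9%) and more negative at 1681 (19.4%), 30.3% in all. This balance depended on scaling, because 36.1% of the differences were positive in the deposited values, 47.9% with median-of-ratios scaling and 48.7% with quantile normalization. The median-of-ratios scaling moved the median difference of all genes by 0.22, from -0.21. Of the 1198 higher genes, 382 had a larger response in the hap5 deletion, 238 a smaller one and 578 no called difference. Of the 961 lower genes, 397 fell further in the hap5 deletion, 130 less far and 434 had no called difference. Both lists were chosen on hap5 deletion libraries that also enter the difference, which favours larger responses in the hap5 deletion. These splits are a description and carry no test. A missing call does not show that the strains responded alike.

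**Figure D3:**
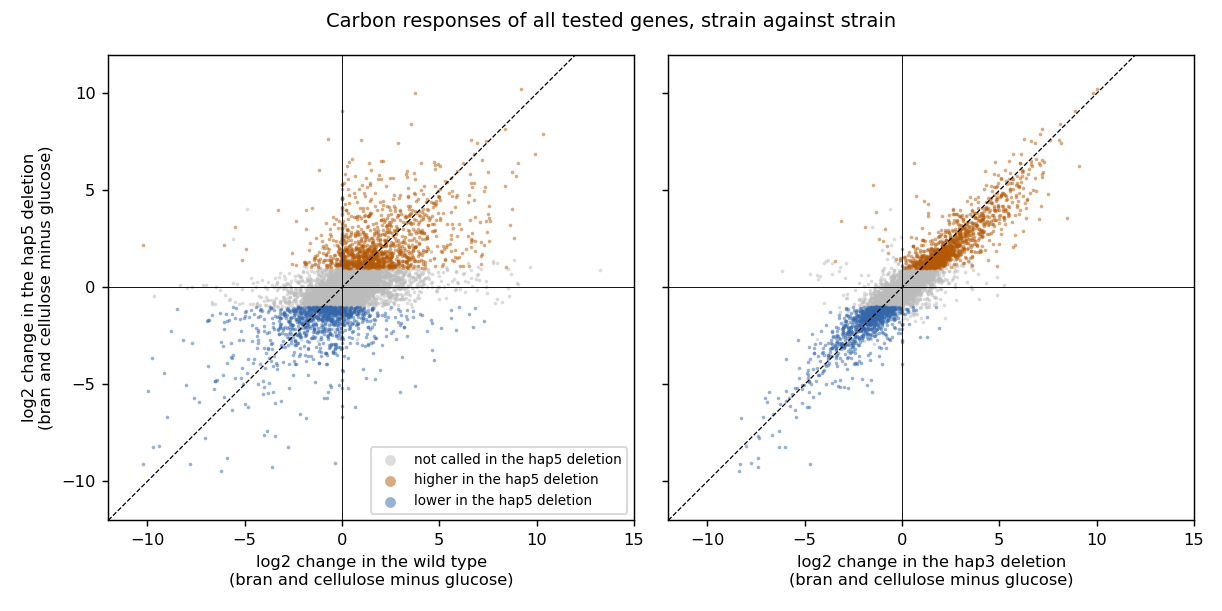
Log2 change on bran and cellulose minus glucose in the hap5 deletion (vertical) against the same change in wild type (left panel) and in the hap3 deletion (right panel), with a point for each of 8681 tested genes and a dashed line at equal change. Points lie close to the line for the hap3 deletion and spread widely for wild type, with 38 genes called higher in the hap5 deletion and lower in wild type and 96 the other way round.

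Genes that responded in the hap5 deletion and were not called in wild type had median levels that differed mainly on bran and cellulose. For the 369 such higher genes, 250 of which had a called difference, the median level on the log2(FPKM + 1) scale was 4.94 on bran and cellulose and 2.38 on glucose in the hap5 deletion. In wild type it was 2.37 and 2.10. For the 391 such lower genes, 252 of which had a called difference, the medians were 3.80 and 5.59 in the hap5 deletion and 4.98 and 5.09 in wild type. In both classes the medians of the strains lay closer together on glucose. That was not particular to these genes. Over all tested genes, hap5 deletion and wild type libraries correlated at 0.766 to 0.791 on bran and cellulose and at 0.865 to 0.873 on glucose. The gap between these strains was larger on glucose at 45.3% of all tested genes. The reverse class had a different shape. The 1130 genes higher in wild type and not called in the hap5 deletion had medians of 4.68 on bran and cellulose and 4.39 on glucose in the hap5 deletion, against 5.56 and 3.56 in wild type. There the gap lay on either medium, with less transcript on bran and cellulose and more on glucose in the deletion strain.

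The genes named by rule for this pattern were called in the hap5 deletion while wild type changed by less than 0.5 on the log2 scale. PDE_02342 stood at 606, 554 and 501 FPKM without hap5 on bran and cellulose and was listed at 0 in its 3 glucose libraries and in all 6 wild type libraries. PDE_07265 stood at 126, 155 and 95.5 FPKM on bran and cellulose and at 0.27, 0.2 and 0.35 FPKM on glucose, a log2 change of 6.61 (SE 0.16, limma adjusted p = 4.20e-14). Wild type had 0.82, 0.62 and 0.76 FPKM of PDE_07265 on bran and cellulose and 0.33, 0.1 and 0.27 FPKM on glucose. This was a smaller rise in the same direction, of 0.49 (SE 0.16, limma adjusted p = 0.014). At such low values the added constant shrinks the change. In the other direction, PDE_03439 was at 0 in every hap5 deletion library on bran and cellulose and stood at 584, 451 and 548 FPKM on glucose. Wild type kept PDE_03439 on both media, at 90.3, 91.1 and 105 FPKM on bran and cellulose and at 132, 106 and 132 FPKM on glucose. PDE_00476 was listed at 0 on bran and cellulose and stood at 106, 94.3 and 102 FPKM on glucose, while all 6 wild type libraries listed it at 0. The hap3 deletion was called the same way at each of the 4.

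Of 8681 tested genes, 38 were called higher in the hap5 deletion and lower in wild type, 3.17% of the higher list. Called the other way round were 96, or 9.99% of the lower list. PDE_06955 stood at 259, 269 and 261 FPKM on bran and cellulose and at 70.5, 45.4 and 56.4 FPKM on glucose in the hap5 deletion, and rose by 2.20 on the log2 scale (SE 0.19, limma adjusted p = 1.10e-07). In wild type it stood at 0.22, 0.31 and 0.23 FPKM on bran and cellulose, against 1262, 1121 and 2222 FPKM on glucose. PDE_09586, a low gene, stood at 7.9, 6.54 and 8.22 FPKM without hap5 on bran and cellulose and was listed at 0 on glucose. Wild type had the mirror image, with PDE_09586 listed at 0 on bran and cellulose and 47.1, 46.4 and 37.6 FPKM on glucose. PDE_01818 was listed at 0, 0 and 0.39 FPKM without hap5 on bran and cellulose and stood at 60.9, 17.0 and 44.7 FPKM on glucose. In wild type it stood at 13.0, 14.4 and 10.7 FPKM on bran and cellulose and was listed at 0 on glucose. In the hap3 deletion PDE_06955 changed by 1.72 and PDE_01818 by -3.27, the directions of the hap5 deletion. PDE_09586 changed there by -1.91, the direction of wild type. PDE_04024 is described below with its neighbouring tags.

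**Figure D4:**
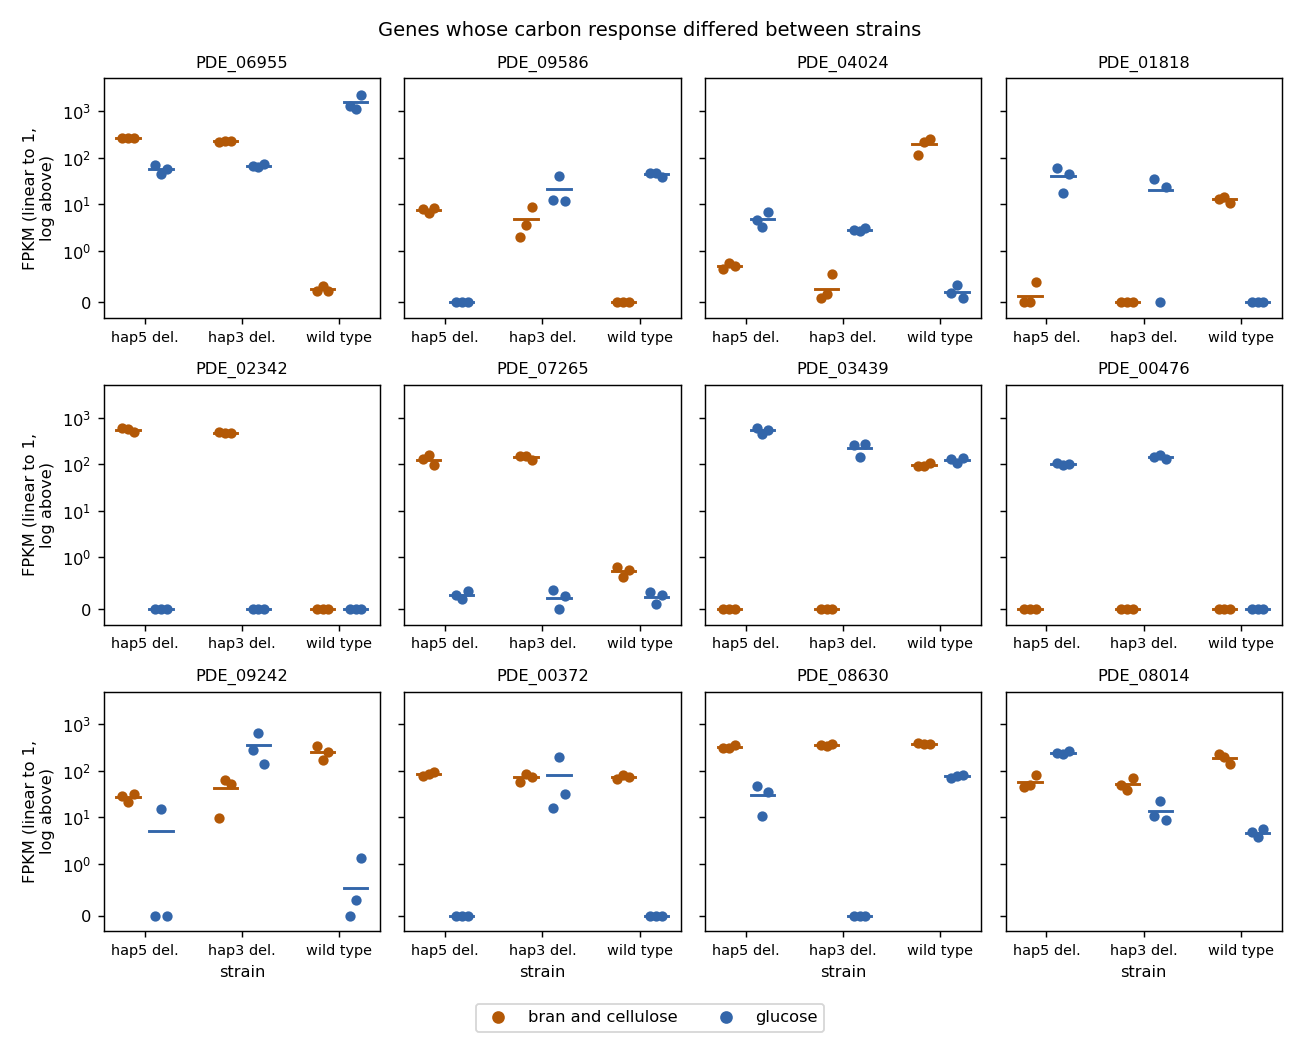
Levels in FPKM, on an axis linear to 1 and logarithmic above, of the 12 genes named for a carbon response that differed between the hap5 deletion and another strain, with a point for each library and a bar for the mean of 3. The top row holds genes called in opposite directions in the hap5 deletion and wild type, the middle row genes that changed by less than 0.5 (log2) in wild type, and the bottom row the largest differences from the hap3 deletion, which lie mostly on glucose.

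The hap3 deletion, which lacks another subunit of the same complex, was the closest comparison. Across 8681 genes the response of the hap5 deletion correlated with that of the hap3 deletion at 0.90 and with that of wild type at 0.55, as a description over genes measured in the same libraries. The 1198 higher genes had a median change of 2.19 in the hap3 deletion, where the median of all genes was 0.05, and 98.8% of them had the same sign. Of these genes 1084 passed the same call in the hap3 deletion, 90.5% of the hap5 deletion list and 67.0% of the hap3 deletion list, where 18.6% of tested genes were higher. Of the 961 lower genes, 774 were called lower, 80.5% of the hap5 deletion list and 65.8% of the hap3 deletion list, where 13.6% were lower and 32.2% called either way. Alike in all 3 strains were 741 higher and 412 lower genes, 61.9% and 42.9% of the hap5 deletion lists. Alike in the deletion strains without the same call in wild type were 343 and 362 (28.6% and 37.7%). Called in the hap5 deletion without the same call in either other strain were 64 and 125 (5.34% and 13.0%). Of these, only 6 and 22 also had both differences called in the direction of the hap5 deletion.

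A test of the difference between the deletion strains called 408 of 8681 genes (4.7%). The response was more positive in the hap5 deletion at 130 (1.5%) and more negative at 278 (3.2%). Positive differences made up 31.9% of the calls in the deposited values, 46.5% with median-of-ratios scaling and 48.4% with quantile normalization. These scalings moved the median difference of all genes by 0.12 and 0.13. The negative differences lay mostly on glucose, and the positive ones less clearly so. Of the 278 genes with a more negative response, 253 (91.0%) differed more between the strains on glucose than on bran and cellulose, and so did 97 of the 130 others (74.6%), against 66.5% of all tested genes. The 278 genes had median levels of 5.12 on bran and cellulose and 4.56 on glucose in the hap5 deletion, and of 5.44 and 3.21 in the hap3 deletion, on the log2(FPKM + 1) scale. Spread between replicates was also largest on glucose in the hap3 deletion, where the median SD over genes was 0.221 log2 units, against 0.122 in the hap5 deletion on glucose. Its part in these counts was not tested. Without each library in turn the share on glucose ran from 82.6% to 93.3% for the more negative genes, lowest without replicate 1 of the hap5 deletion on bran and cellulose. For the others it ran from 64.5% to 81.9%, lowest without replicate 3 of the hap3 deletion on bran and cellulose. That lowest share lies under the 66.5% of all tested genes, which was computed with every library and not recomputed without that one.

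PDE_08014 shows such a difference. It stood at 44.2, 48.8 and 81.7 FPKM on bran and cellulose and at 243, 229 and 258 FPKM on glucose in the hap5 deletion, so it fell by 2.10 on the log2 scale (SE 0.30, limma adjusted p = 2.42e-05). In the hap3 deletion it stood at 48.8, 38.1 and 68.1 FPKM on bran and cellulose and at 10.8, 21.9 and 8.65 FPKM on glucose, and in wild type at 226, 201 and 142 FPKM and at 4.74, 3.72 and 5.48 FPKM. The deletion strains overlapped on bran and cellulose and stood apart on glucose, and the difference in response was -3.99 (SE 0.43, limma adjusted p = 7.47e-05). PDE_08630 stood at 307, 314 and 355 FPKM on bran and cellulose and at 46.1, 10.7 and 34.1 FPKM on glucose in the hap5 deletion. All 3 hap3 deletion libraries on glucose listed PDE_08630 at 0, and wild type had 68.5, 78.7 and 81.0 FPKM there. PDE_00372 stood at 77.7, 83.2 and 92.9 FPKM on bran and cellulose and was listed at 0 on glucose in the hap5 deletion, while the hap3 deletion had 15.4, 194 and 31.0 FPKM on glucose. Wild type resembled the hap5 deletion at PDE_00372, with 66.4, 79.8 and 73.1 FPKM on bran and cellulose and a listed 0 on glucose. PDE_09242 stood at 28.0, 21.1 and 31.1 FPKM on bran and cellulose and at 0, 15.1 and 0 FPKM on glucose, against 9.51, 64.1 and 51.7 FPKM and 272, 638 and 139 FPKM in the hap3 deletion. Wild type had 338, 168 and 246 FPKM of PDE_09242 on bran and cellulose and 0, 0.3 and 1.32 FPKM on glucose. Replicates of the last 2 genes spread by several fold within the hap3 deletion on glucose.

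Some genes with consecutive tag numbers were called together. Runs of at least 5 consecutive tags called in the same direction numbered 10 and held 80 genes, 55 higher in 6 runs and 25 lower in 4, where 13.8% and 11.1% of all tested genes were called. Tag numbers are taken as names and not as map positions. The longest runs had 13 tags each. From PDE_00789 to PDE_00801 the changes ran from 1.36 to 3.82, and the following run of 9 tags, PDE_00803 to PDE_00811, ran from 1.75 to 3.92. PDE_00802 between them changed by 0.997 and so missed the minimum of 1. The median gene of the first run averaged 267 FPKM on bran and cellulose and 43.8 FPKM on glucose in the hap5 deletion, with 20.3 and 1.47 FPKM in wild type. Replicate 2 on glucose was the highest of its group at all 13 and all 9 tags of these runs, as at PDE_00790 with 15.1, 83.7 and 32.5 FPKM. Without it the median gene of the first run averaged 26.3 FPKM on glucose, and the median change of the run was 3.09 in place of 2.64. All 13 and all 9 genes stayed called without any single hap5 deletion library, and all were also called higher in wild type and in the hap3 deletion. In the test of the difference, 7 and 5 of them rose less in the hap5 than in the hap3 deletion, where 3.2% of all tested genes were called in that direction. These 2 counts rest on single libraries. Leaving out 1 library of either deletion strain gave 4 to 13 and 2 to 6 genes, with 13 and 6 without replicate 1 of the hap5 deletion on glucose and 5 and 3 without replicate 2.

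The other long run, PDE_09998 to PDE_10010, changed by 1.09 to 4.86 in the hap5 deletion, with a median gene at 256 FPKM on bran and cellulose and 19.3 FPKM on glucose. Replicate 2 was the highest glucose library at 12 of its 13 tags, and without it the median gene stood at 11.6 FPKM on glucose. In this run 12 genes were called higher in wild type and 13 in the hap3 deletion. PDE_10000, the smallest change in the run, lost its call without replicate 2 on bran and cellulose, or without replicate 1 or 3 on glucose, with a change of 0.61, 0.81 or 1.12. PDE_01063 to PDE_01071 rose by 2.55 to 5.05, and PDE_01429 to PDE_01433 by 2.83 to 4.58. From PDE_01429 to PDE_01433, 3 of 5 genes rose more in the hap5 deletion than in wild type, and 3 rose less than in the hap3 deletion, or 2 to 3 without 1 library. Replicate 2 was the highest glucose library at all 5 tags.

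Among the runs that fell, PDE_04024 to PDE_04029 went against wild type at every tag. All 6 genes were lower on bran and cellulose in the hap5 deletion, by 1.38 to 2.23 on the log2 scale, and all 6 were higher there in wild type, with a median change of 6.19. PDE_04024 stood at 0.64, 0.77 and 0.7 FPKM on bran and cellulose and at 4.67, 3.18 and 6.72 FPKM on glucose in the hap5 deletion. Wild type had 114, 220 and 256 FPKM of PDE_04024 on bran and cellulose, against 0.19, 0.34 and 0.08 FPKM on glucose, and the difference in response was -9.02 (SE 0.37, limma adjusted p = 3.04e-11). The difference was called at all 6 tags. The hap3 deletion called 5 of the 6 lower, and the differences between the deletion strains had limma adjusted p from 0.21 to 0.96.

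PDE_01230 to PDE_01234 fell by 2.78 to 5.85 in the hap5 deletion and also fell in both other strains. The tag before this run, PDE_01229, moved the opposite way, at 614, 522 and 753 FPKM on bran and cellulose and 7.53, 6.89 and 12.5 FPKM on glucose, a log2 change of 6.01 (SE 0.53, limma adjusted p = 1.05e-07). It was picked for its place beside the run after its value was seen. PDE_03413 to PDE_03417 fell by 3.05 to 5.42, and all 5 genes fell further than in the hap3 deletion, or 4 to 5 without 1 library. PDE_03417, the most abundant of them, stood at 21.0, 22.5 and 17.2 FPKM on bran and cellulose and at 735, 581 and 683 FPKM on glucose. PDE_01191 to PDE_01199 changed by -1.21 to -7.74, and PDE_01194 from above is its steepest member. Of these 9 tags, 9 were called lower in the hap3 deletion and 6 in wild type, and 3 fell further than in wild type. In wild type PDE_01195, PDE_01196 and PDE_01197 changed by 0.23, 0.82 and 0.18, the last from values of at most 0.44 FPKM.

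The run from PDE_09198 to PDE_09203 was the only one of the 10 in which the hap3 deletion had no call, with log2 changes of 0.31 to 1.31 there. Its rise was uneven between replicates. PDE_09199 stood at 62.4, 7.3 and 157 FPKM on bran and cellulose and at 1.36, 1.03 and 1.33 FPKM on glucose, and replicate 2 was the lowest on bran and cellulose at all 6 tags. Without replicate 3 on bran and cellulose 4 of the 6 genes lost their call, and without replicate 1 there 1 did. The differences from the hap3 deletion had limma adjusted p from 0.11 at PDE_09203 to 0.42 at PDE_09198, so these tags are not shown to separate the deletion strains.

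**Figure D5:**
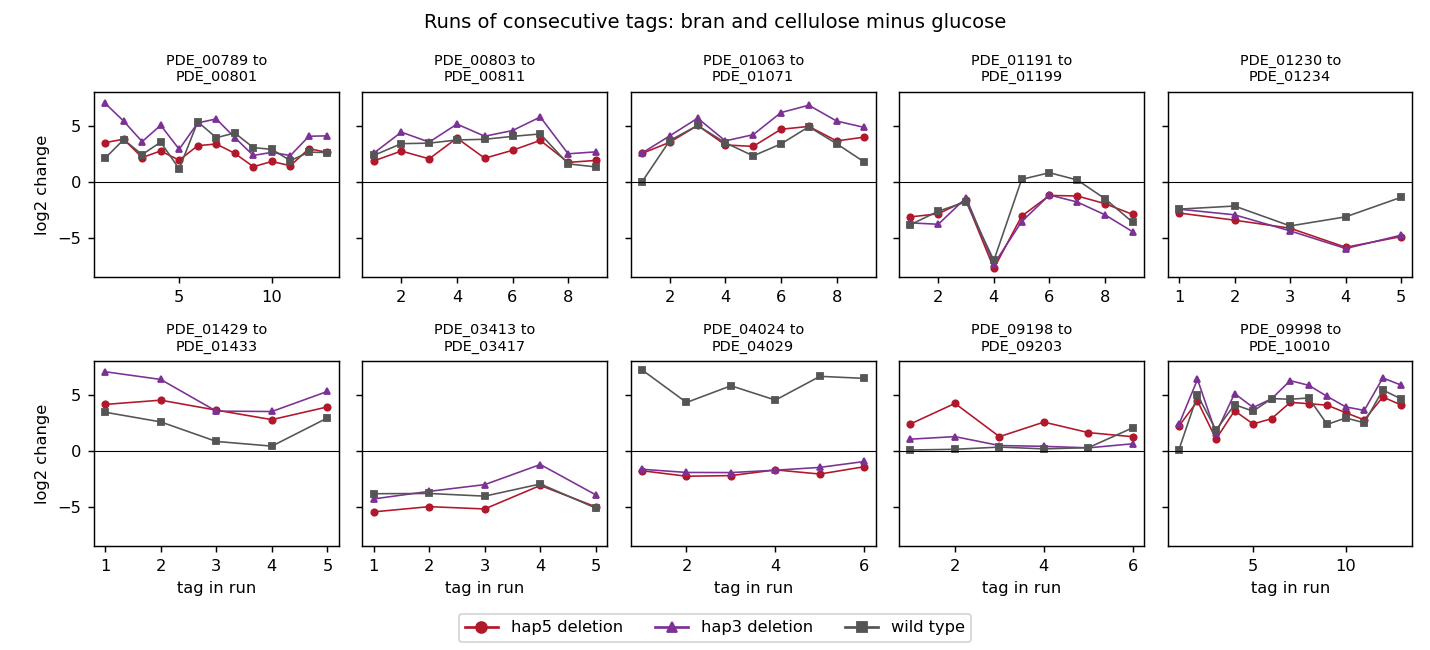
Log2 change on bran and cellulose minus glucose at each tag of the 10 runs, in the order of the tag numbers, for the hap5 deletion (circles), the hap3 deletion (triangles) and wild type (squares). The strains follow each other in most runs. Wild type lies above 0 and both deletion strains below it from PDE_04024 to PDE_04029 and, by less, from PDE_01195 to PDE_01197. The hap5 deletion stands highest at 5 of the 6 tags from PDE_09198 to PDE_09203.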

How the data were processed

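FPKM is the unit named in the file headers of the single table deposited by the authors. Neither labels nor headers name an aligner, quantifier, build or use of strand, so values of overlapping or near-identical genes are uncertain. The labels' protocols describe NlaIII and MmeI tag libraries, for which division by gene length alters levels between genes but not how 1 gene compares across libraries. Glucose columns carry the medium letter of the sample titles, and bran and cellulose columns were matched by elimination, with 0 columns unmapped. Low values were searched for read steps: the best common ratio to glucose replicate 1 gathered 3.32% to 6.15% of low genes, so depth was not recovered.

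Genes reaching 1 FPKM in 3 or more of the 18 libraries were tested on log2(FPKM + 1) with limma 3.58.1 in R 4.3.3, with 6 group means, an intensity trend and Benjamini-Hochberg adjustment over 8681 genes. Alternatives were another pseudocount, other filters on low values, quantile normalization, a replicate block, no minimum change, median-of-ratios scaling, a fit on the compared groups and leaving out each library. Named genes were, per comparison, at most 2 in each direction with 10 FPKM in a group, media that did not overlap in the hap5 deletion, and the largest change or difference or, for the transcript pool, share. For largest changes, all 6 libraries had to be above 0. Members, lists and rules were chosen with earlier results of these data known, and no named gene list was formed.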

Additional observations from a re-analysis of the deposited data

Results flagged for a closer look

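Each value below is a difference in carbon response between strains on the log2(FPKM + 1) scale, hap5 deletion minus the other strain, called by the interaction contrast of limma (adjusted p under 0.05, at least 1 log2 unit). Against wild type 948 genes were positive and 1681 negative, and against the hap3 deletion 130 and 278. The positive differences from wild type were 12.39 for PDE_06955 and 6.11 for PDE_07265. PDE_08630 stood at 1.28. The negative ones were -9.02 for PDE_04024, -7.16 for PDE_08014, -5.65 for PDE_00326, -2.86 for PDE_00023 and -1.39 for PDE_01674. Where a group was listed at 0 the value depends on the constant added to FPKM and bounds nothing. Such differences from wild type were 9.11 for PDE_02342, 8.57 for PDE_09586, -8.82 for PDE_01818, -8.68 for PDE_03439 and -6.67 for PDE_00476. PDE_09242 and PDE_09419, listed at 0 in part of a group, stood at -3.95 and 6.26.

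Against the hap3 deletion PDE_08014 differed by -3.99, PDE_00326 by -1.86 and PDE_00023 by -1.38, and these genes were detected in every library of both strains. With a group listed at 0, the differences were 5.79 for PDE_00372, 5.00 for PDE_09586, -1.28 for PDE_03439 and -4.88 for PDE_08630. PDE_09242 differed by 6.57, with a listed 0 in part of a group.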

How the results depend on the processing

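All 20 named results kept direction and call in 346 recomputations, counted over genes and settings together. For PDE_02342, PDE_07265, PDE_03439 and PDE_00476 the recomputed result was the carbon response of the hap5 deletion. Their small change in wild type and their difference from wild type were not recomputed. The flagged strain differences of genes named for the largest change or share were not recomputed either. The replicate number as a block gave 1199 higher and 961 lower genes in the hap5 deletion, 952 and 1677 in the difference from wild type, and 130 and 271 in that from the hap3 deletion. Same-numbered hap5 deletion libraries of the media deviated together at 0.046 to 0.065, so the numbers were not taken as pairs. Without a minimum change the counts were 2443 and 3009, then 1823 and 3092, then 459 and 849, and runs held 395 genes, fewer criteria being applied. Leaving out 1 library gave 1169 to 1224 higher and 934 to 984 lower genes, 929 to 997 and 1619 to 1753 against wild type, 108 to 160 and 203 to 359 against the hap3 deletion, and 81 to 89 genes in runs. The recounts of runs, the pool without PDE_09832 and PDE_09831, and a fit that dropped genes at 0 in only some libraries of a compared group (1121 higher and 909 lower genes), were added after seeing the data. Genes chosen on the hap5 deletion had these medians elsewhere. With a pseudocount of 0.1 the higher genes gave 2.01 in wild type and 2.39 in the hap3 deletion, and the lower genes -1.71 (hap3 deletion). Median-of-ratios scaling gave 1.496, 2.07, -1.14 (wild type) and -1.75. Quantile normalization gave 1.27 in wild type for higher genes and, for lower genes, -1.11 in wild type and -1.69 in the hap3 deletion. The cause was not tested. Unknown depth leaves no counting error for low genes.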

Other observations

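PDE_05418 was listed at 2154 FPKM in replicate 3 of the hap5 deletion on glucose, 0.213% of that library's total, and at 0 in the other 17 libraries. It was too rare among libraries to be tested and was chosen after its value was seen.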
